A study of Mus musculus with 40 samples.

Results

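The gonadal white adipose tissue (gWAT) of sons was compared between offspring whose fathers had been exposed to nicotine and offspring of control fathers. This comparison used 9 libraries, 5 from the nicotine group and 4 from the control group, out of 40 labelled samples in the series. The members were the nicotine columns 1 to 5 and every control column of the deposited table for male fat. The whole study profiled liver and gWAT of both sexes of C57BL/6J mice with 3′-tag RNA sequencing, in which polyadenylated transcripts are read near their 3′ ends. All samples are C57BL/6J by genotype and carry 1 batch number; the fathers received the exposure, and the control columns are headed DMSO. The labels list 5 control sons, and their numbers do not show which of them the 4 columns are. No age, litter, father, dose or route is named in the sources used here; the p-values therefore reflect spread among these libraries alone, and that spread may be technical.

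In male mice gWAT lies along the epididymis, the coiled duct in which sperm mature, and is often called epididymal fat. Adipocytes in this depot take up circulating fatty acids, make some of their own from glucose, store both as triglyceride, and release them again by lipolysis; they also secrete hormones such as adiponectin and leptin. Macrophages, fibroblast-like progenitors, endothelial cells and the mesothelium that covers the depot contribute the rest of the RNA. In bulk tissue, fewer cells of a type and less RNA per cell cannot be told apart.

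Depth ranged from 1543208 to 1986451 reads assigned to genes. The table lists 18224 genes, and the 11210 with a mean normalized count of 10 or more were tested. Values below are DESeq2 normalized counts, which are read counts divided by 1 scaling factor per library. A log2 change is the nicotine mean minus the control mean of log2(normalized count + 1), a scale that shrinks changes of low genes, and comes with its standard error (SE) from limma. Controls 1 to 4 and nicotine 1 to 5 are named as the columns are numbered, and equal numbers imply no pairing.

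The libraries differed widely in how much epididymal RNA they held, and the richest library of each exposure group stood far above the rest. A list of 52 epididymis genes had 50 in the table, and their reads made up 8.64% (95% Wilson interval 8.61 to 8.68) of control 1 and 6.62% (6.58 to 6.66) of nicotine 1. In the other control libraries the share was 0.0185% (0.0166 to 0.0205) in control 2, 0.102% in control 3 and 0.403% in control 4. In the other nicotine libraries it was 0.159% in nicotine 2, 1.00% in nicotine 3, 1.29% in nicotine 4 and 0.567% in nicotine 5. These intervals cover counting error only. Outside control 1 and nicotine 1, the share was above 0.5% in 3 of 4 nicotine libraries and below it in all 3 controls. Of the 50 genes, 45 had their highest levels in control 1 and nicotine 1.

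Gpx5, a glutathione peroxidase secreted by the upstream part of the epididymis, was at 47559, 38.2, 323 and 8.68 normalized counts in controls 1 to 4. In nicotine 1 to 5 it was at 39916, 0.941, 25.2, 2754 and 3156. Gpx5 was thus high in control 1 and nicotine 1, intermediate in nicotine 4 and 5, and low in the other libraries of both groups. Lcn8, a lipocalin of the initial segment, was at 3371, 7.28, 80.0 and 0 in the controls and at 2874, 0, 0, 801 and 312 in the nicotine libraries. Ros1, the receptor tyrosine kinase needed to form that segment, had no read in control 2, control 4, nicotine 2 or nicotine 3. Crisp1, a sperm-coating protein made further down the duct, had a different distribution. It was at 2351, 10.0, 10.0 and 3460 in the controls and at 2310, 1309, 2520, 1999 and 165 in the nicotine libraries. Control 4, nicotine 2 and nicotine 3 therefore held Crisp1 with little or no Gpx5 and Lcn8. Spink8, a protease inhibitor of the epididymis, was likewise at 2112 in control 4, 934 in nicotine 2 and 6572 in nicotine 3, against 16.4 and 24.0 in controls 2 and 3.

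The same 3 libraries held Akr1b7, an aldo-keto reductase known as the mouse vas deferens protein. It was at 9.96, 13.7, 13.0 and 6982 normalized counts in the controls and at 5.38, 2614, 644, 8.16 and 208 in the nicotine libraries. Its fitted difference had a 95% interval from -4.09 to 5.84 on the log2 scale. Ptgs2, the inducible cyclooxygenase, which was chosen after its values were seen, was at 412 in control 4, 219 in nicotine 2 and 54.2 in nicotine 3 and at no more than 12.0 elsewhere. Prm1, the protamine that packs sperm DNA, was at 64.3, 409, 7.00 and 1.74 in the controls and at 268, 2.82, 55.2, 1.81 and 6.67 in the nicotine libraries. Prm1 was thus highest in control 2, the library with the smallest epididymal share, and next in nicotine 1. The whole testis and sperm list summed to 1270 in control 2 and 1289 in nicotine 1.

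**Figure D1:**
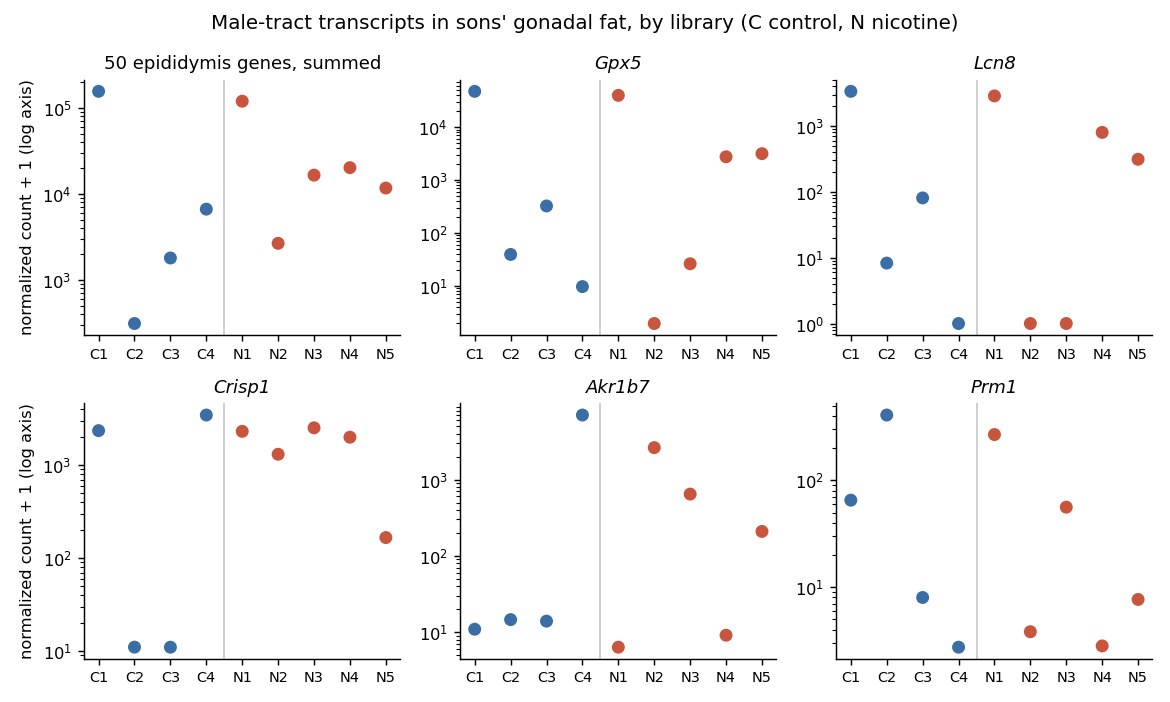
Normalized count + 1 on a log axis, for each of 4 control (blue) and 5 nicotine (red) libraries, of the 50 summed epididymis genes and of 5 single genes. Control 1 and nicotine 1 lead the sum, Gpx5 and Lcn8; control 4, nicotine 2 and nicotine 3 hold Crisp1 and Akr1b7; Prm1 is highest in control 2.

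Of the 47 epididymis genes that were tested, 44 had a higher mean in the nicotine group, with a median log2 change of 0.95. Over all 11210 tested genes, 5713 (51%) were higher, with a median of 0.01. In the 7 libraries other than control 1 and nicotine 1, 46 of the 47 were higher and their median was 1.80. None of the 47 passed the test, and in none were the groups separate. A single library turned this median: it was 3.06 without control 1 alone and -0.10 without nicotine 1 alone. Values below are given with all 9 libraries, and also without control 1 and nicotine 1 where the text says so. A fit with the library's epididymis level as a covariate, added after the data were seen, called 0 genes by limma (436 at an unadjusted p below 0.05, smallest adjusted p 0.958). With the covariate the medians of several lists moved: adipocyte genes from 0.01 to 0.33, general macrophage genes from 0.42 to 0.69, cholesterol synthesis from 0.24 to 0.00 and mesothelial genes from 0.32 to 0.06.

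Genes typical of liver and muscle also differed between libraries, and the source of their RNA was not tested. Alb, serum albumin, was at 1866 in nicotine 1 and between 99.7 and 384 in the other 8 libraries. Acta1, skeletal muscle actin, was at 178 in control 4 and 107 in nicotine 2 and between 8.15 and 60.7 elsewhere. The 14 pericyte and smooth muscle genes summed to 9421 in control 4 against 2419 to 5396 in the rest. The liver list had 12 of 14 tested genes lower in the nicotine group (median -0.32), although nicotine 1 held the most liver transcript of any library. In the 7 other libraries the median was -1.04, with 13 of 14 lower.

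The first principal component of the log values took 50.4% of the variance and set control 1 and nicotine 1 (0.58 and 0.56) apart from the other 7 libraries, which lay between -0.37 and 0.04. By Spearman correlation over the tested genes, 3 pairs of libraries were each other's nearest neighbour: control 1 with nicotine 1 (0.945), control 2 with control 3 (0.941) and control 4 with nicotine 2 (0.941). The first and the last joined a control with a nicotine library, and the other joined a pair of controls. In both control 1 and nicotine 1, 132 genes were at least 4-fold above every other library, and 82 were at or below 0.5 of every other library. The adipocyte list summed to 36813 in control 1 and 45610 in nicotine 1, against 71667 to 129410 in the other 7. Adipoq, the gene of adiponectin, was present in every library, from 2900 to 9040.

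No gene passed the test of the father's exposure in sons' gWAT. Of 11210 tested genes, limma called 0 (0%) at an adjusted p below 0.05, and the smallest adjusted p was 0.9996. With unadjusted p below 0.05, limma listed 182 genes (1.62%), 96 of them higher (0.856%) and 86 lower (0.767%) with nicotine. The 182 are a smaller share than the 0.05 expected on average at this threshold if no gene differed. Tests on the recovered reads also called 0: edgeR's quasi-likelihood test had 197 genes and DESeq2 185 genes at an unadjusted p below 0.05. The authors' deposited table has 0 genes at an adjusted p below 0.05 and 236 at a p below 0.05; its smallest adjusted p, 0.583, belongs to Ftl1. In 82 genes (0.731%) the groups did not overlap, 38 (0.339%) with every nicotine library above every control and 44 (0.393%) below. Such separation also arises by chance in some of 11210 genes, at a rate that was not worked out. The median absolute log2 change was 0.18, under the median within-group SD of 0.44.

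The precision of a single gene sets what these counts can say. The 95% interval of the change lay within -1 and 1 on the log2 scale, a doubling or halving, in 7053 genes (62.9%). In data simulated on these libraries, limma called 3% of genes changed 2-fold and 53% of genes changed 4-fold. DESeq2 called 21% and 77%, with 32 false calls. The simulation drew each gene independently, without the differences between libraries that many genes share here. Most 2-fold changes were missed in it.

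Ftl1, which encodes the light chain of ferritin, the iron storage protein (chromosome 7, 45457944 to 45459884, minus strand, in the mm10 genome), had the smallest p. It was at 243, 271, 293 and 242 normalized counts in the controls and at 428, 325, 409, 479 and 489 in the nicotine libraries. Every nicotine library lay above every control, and the log2 change was 0.69 ± 0.17 (SE; limma adjusted p = 0.9996). It was 0.65 ± 0.20 without control 1 and nicotine 1, again with no overlap. Ferritin light chain has near-identical copies in the mouse genome, so its count depends on how the authors assigned shared reads. Fth1, the heavy chain, was at 1266, 1746, 1845 and 1114 in the controls and at 1578, 1707, 1883, 1999 and 2197 in the nicotine libraries, with overlap between groups (0.35 ± 0.21).

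The other genes with the smallest p among those higher in the nicotine group included proteins of lysosomes, endosomes and chemokine handling. Ctsd, the lysosomal protease cathepsin D, was at 449, 567, 669 and 606 in the controls and at 778, 649, 1491, 1131 and 1539 in the nicotine libraries (0.90 ± 0.28). Only nicotine 2 lay within the range of the controls. Gaa, the lysosomal enzyme that breaks down glycogen, averaged 25.7 ± 6.33 (SD, n = 4) and 42.4 ± 8.81 (SD, n = 5) normalized counts, and Snx8, a sorting nexin of endosomes, 41.3 ± 6.86 and 63.4 ± 8.32. Ackr4, a scavenging receptor for chemokines, was at 54.3, 40.1, 41.0 and 28.7 in the controls and at 80.7, 63.1, 106, 64.4 and 60.0 in the nicotine libraries (0.85 ± 0.24). Pdgfa, a growth factor ligand that acts on adipocyte progenitors, was at 38.0 to 52.0 in the controls and 55.9 to 81.3 in the nicotine libraries. The 12 such genes, which also include Reep6, Thoc6, Ptcd2, Brox and Mbd1, had log2 changes from 0.57 to 0.94. Groups did not overlap in 7 of them, beside 0.339% of all genes with nicotine above. All 12 stayed higher without control 1 and nicotine 1. Because the genes were chosen by p on these same libraries, both counts follow largely from that choice.

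Among the genes lower in the nicotine group, Tipin, a replication fork protein, had the smallest p. It was at 74.3, 117, 90.0 and 95.5 in the controls and at 52.7, 62.1, 68.7, 60.7 and 54.7 in the nicotine libraries (-0.64 ± 0.18). Wnt5a, a secreted Wnt ligand, was at 132, 117, 122 and 148 in the controls and at 113, 86.6, 82.3, 78.9 and 96.0 in the nicotine libraries (-0.51 ± 0.17). The groups did not overlap in either gene. Cpeb3, which binds mRNA and controls its translation, was at 54.3 to 85.1 in the controls and 44.4 to 53.3 in the nicotine libraries (-0.56 ± 0.18). Smad7, an inhibitor of TGF-beta signalling, was at 29.9, 34.6, 49.0 and 33.0 in the controls and at 20.4, 34.8, 17.4, 15.4 and 17.3 in the nicotine libraries (-0.80 ± 0.27). Rasd1, a Ras-like protein that glucocorticoids induce, had the largest difference of the group (-2.08 ± 0.72). It was at 50.7, 37.3, 34.0 and 34.7 in the controls and at 51.6, 1.88, 2.90, 10.9 and 9.33 in the nicotine libraries, so nicotine 1 alone reached the control range. Without control 1 and nicotine 1 the Rasd1 change was -2.58 ± 0.53, still with an adjusted p of 0.999 from limma. The 12 genes, with Snora81, Rpl7-ps7, Uvssa, Cnot3, Arhgap26, Exoc1 and Map9, had log2 changes from -2.08 to -0.49. Groups did not overlap in 9, beside 0.393% of all genes with nicotine below, a count that again follows largely from the choice by p. Snora81 lies within Eif4a2 on the same strand and Rpl7-ps7 is a processed pseudogene, so their reads may belong to other transcripts. In the annotation Cpeb3 overlaps March5 and Ackr4 overlaps Acad11 on the opposite strand. Thoc6, Brox, Cnot3 and Arhgap26 also overlap protein-coding genes on the opposite strand, and Ctsd overlaps a predicted one on the same strand. No source used here says whether counting used strand.

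**Figure D2:**
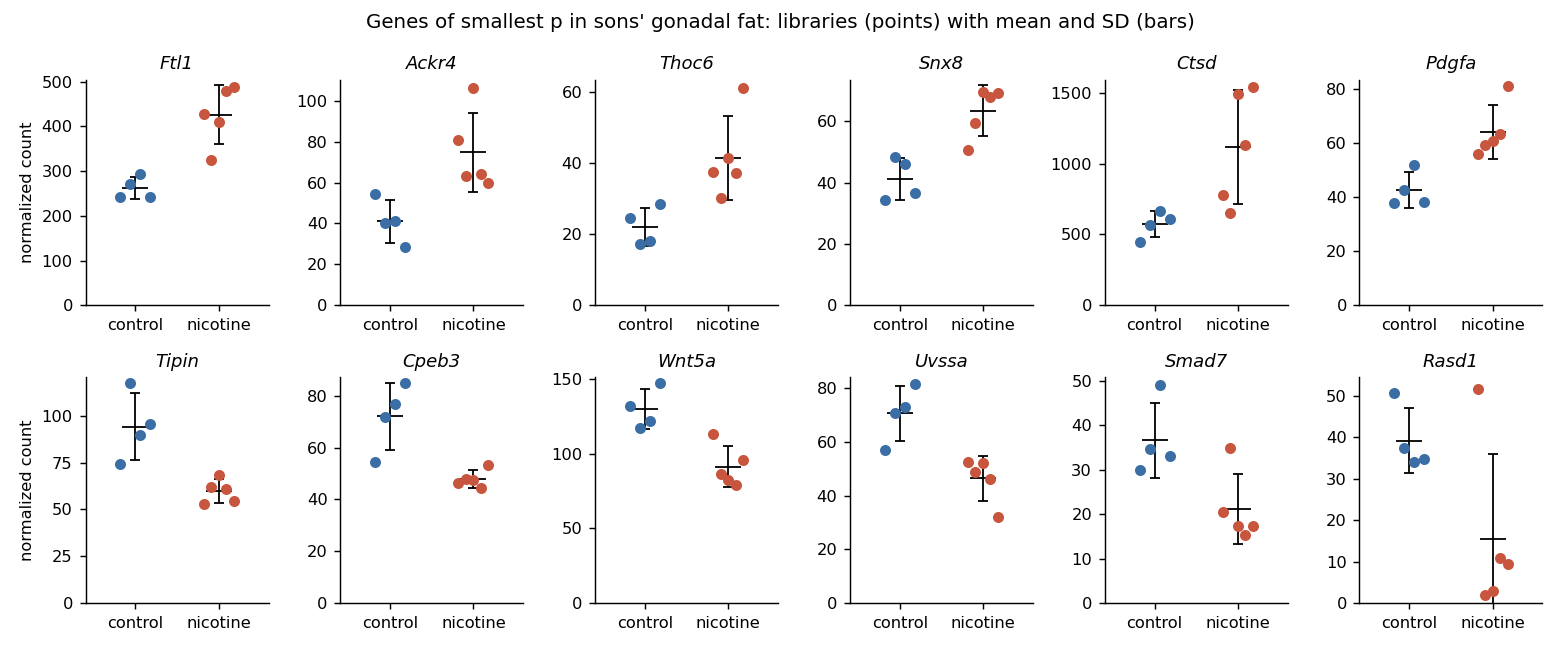
Normalized counts of 12 of the 24 genes with the smallest p, with a point for each of 4 control and 5 nicotine libraries and the group mean and SD as bars. None passed after adjustment; Ftl1 ranges from 242 to 293 in the controls and from 325 to 489 in the nicotine libraries, and in Rasd1 nicotine 1 sits with the controls.

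Leaving out control 1 and nicotine 1, an alternative added after the data were seen, gave 552 genes (4.92%) whose groups did not overlap, 250 (2.23%) with nicotine above and 302 (2.69%) with nicotine below. Separation of 3 controls from 4 nicotine libraries is an easier condition than that of 4 from 5, so this count and the 82 above are not comparable. With these 7 libraries limma listed 383 genes (3.42%) at an unadjusted p below 0.05, again a smaller share than 0.05, and called 0.

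The adipocyte genes fixed for description did not differ beyond the spread of the libraries. Adipoq was at 2900, 6866, 8974 and 5684 in the controls and at 3268, 6581, 6392, 6854 and 9040 in the nicotine libraries, a log2 change of 0.11 with a 95% interval from -0.73 to 0.96. Control 1 and nicotine 1 were lowest in their groups. Lep, the gene of leptin, was at 48.9, 174, 124 and 77.3 in the controls and at 62.4, 143, 57.1, 177 and 113 in the nicotine libraries (0.08 ± 0.43). Pparg, the master regulator of adipocyte differentiation, differed by -0.07 ± 0.29, Retn (resistin) by 0.28 ± 0.34, Cfd (adipsin) by 0.02 ± 0.51 and Slc2a4, the insulin-responsive glucose transporter, by 0.43 ± 0.34. In the 7 other libraries, without control 1 and nicotine 1, Pparg was at -0.37 ± 0.25, Slc2a4 at 0.26 ± 0.27, Retn at 0.06 ± 0.28 and Lep at -0.07 ± 0.38. Of the 25 genes of the adipocyte list, 14 were higher and 11 lower (median 0.01), and none passed. The median was -0.28 without control 1 alone and 0.25 without nicotine 1 alone.

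Fatty acid and triglyceride synthesis genes had higher means in the nicotine group in 24 of 26, with a median of 0.49, and none passed. Fasn, fatty acid synthase, was at 513, 1435, 992 and 1541 in the controls and at 3312, 884, 963, 1768 and 6654 in the nicotine libraries (0.97 ± 0.59). Nicotine 1, 4 and 5 were above every control, while nicotine 2 and 3 were not. Acaca, the acetyl-CoA carboxylase that supplies Fasn, was at 105, 320, 213 and 243 in the controls and at 530, 279, 198, 428 and 960 in the nicotine libraries (1.01 ± 0.45). Scd1, the desaturase that makes oleate, was at 58060 in nicotine 5 and between 8893 and 27374 in the other 8 libraries. Slc25a1, the mitochondrial citrate carrier, was at 369 in nicotine 5, 140 in nicotine 1 and 135 in nicotine 4, against 51.2 to 71.9 in the controls (1.09 ± 0.46). The summed list was 81533 in nicotine 5, most of it Scd1, and 15446 to 39646 elsewhere. Of the single libraries left out, control 1 lowered the median of the list most, to 0.25. Without control 1 and nicotine 1, 24 of 26 were again higher, with a median of 0.23; Fasn was then at 0.45 ± 0.59 and Acaca at 0.61 ± 0.44. Srebf1, the transcription factor of this pathway, changed sign between the fits, from 0.15 ± 0.33 with all libraries to -0.11 ± 0.33 without those 2. Elovl6, a fatty acid elongase, was at 420 in control 1 and 605 in nicotine 1 against 56.0 to 85.6 in the other controls, and at 55.5, 53.2, 129 and 332 in nicotine 2 to 5, so this member of the list was also high where epididymal RNA was high.

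Genes of lipid droplets and lipolysis were higher in 16 of 22 (median 0.15), and genes of lipoprotein lipase and fatty acid uptake in 9 of 14 (0.12). Without control 1 alone these medians were -0.04 and -0.04. Adrb1, the beta-1 adrenergic receptor that starts lipolysis, was at 15.4, 40.1, 54.0 and 30.4 in the controls and at 31.2, 136, 113, 76.1 and 78.7 in the nicotine libraries (1.27 ± 0.45). Its groups did not overlap once control 1 and nicotine 1 were left out (1.26 ± 0.28). Plin2, which coats lipid droplets, was at 127 to 207 in the controls and 189 to 377 in the nicotine libraries (0.61 ± 0.23). G0s2, the inhibitor of adipose triglyceride lipase, went the other way, at 134, 319, 269 and 425 in the controls and 119, 196, 77.4, 183 and 239 in the nicotine libraries (-0.80 ± 0.39). The lipases did not pass the test: the difference was 0.53 ± 0.38 for Pnpla2 (0.83 with the epididymis covariate), 0.10 ± 0.48 for Lipe (-0.14 without control 1 and nicotine 1) and 0.32 ± 0.44 for Lpl. Angptl4, which inhibits lipoprotein lipase, differed by 0.14 ± 0.35. Fabp5, a fatty acid binding protein of macrophages and adipocytes, was at 848 in nicotine 5 and 437 in nicotine 3, against 77.9 to 200.3 in the controls (1.28 ± 0.46).

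Mitochondrial lists had small medians, most of them above 0. Respiratory chain subunits were higher in 54 of 59 (median 0.20) and in 52 of 59 without control 1 and nicotine 1 (0.16), and none passed. Without nicotine 5 alone the median was 0.05. The summed level was 46756 in nicotine 5, 35326 in nicotine 1 and 20612 to 27700 in the other 7 libraries, with controls and nicotine 2, 3 and 4 overlapping. TCA cycle and pyruvate dehydrogenase genes were higher in 23 of 23 (median 0.17), but in 15 of 23 without those 2 libraries (0.11). Fh1, fumarate hydratase, was at 92.4 to 124 in the controls and 118 to 208 in the nicotine libraries (0.52 ± 0.19). Fatty acid oxidation genes were higher in 15 of 21 with all libraries (0.06) and in 9 of 21 without those 2 (-0.03). Ppargc1a, the coactivator that drives mitochondrial genes, was at 16.3, 23.7, 25.0 and 12.2 in the controls and at 16.1, 6.59, 6.77, 17.2 and 9.33 in the nicotine libraries (-0.78 ± 0.39). Thermogenic genes were higher in 6 of 13 (median -0.13). Among them Cidea was at 105 in nicotine 5 against 3.62 to 29.0 in all others (1.41 ± 0.60), and Prdm16, a regulator of brown and beige fat, was at -0.70 ± 0.30. Ucp1 was below the filter, with 0, 1, 3 and 1 reads in the controls and 12, 0, 0, 3 and 8 in the nicotine libraries. Pdk4 and Cpt1b were not tested.

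Macrophage and lysosome genes leaned towards the nicotine group. General macrophage genes were higher in 19 of 21 (median 0.42) and lipid-associated macrophage genes in 17 of 19 (0.54), without any passing. Without control 1 and nicotine 1 the counts were 18 of 21 (0.29) and 17 of 19 (0.48). Single libraries moved these medians further: the general list was at 0.10 without control 1 alone, and the lipid-associated list at 0.31 without nicotine 3 alone. Fcgr3, an Fc receptor of macrophages, was at 28.1, 86.5, 113 and 94.6 in the controls and at 62.4, 154, 247, 171 and 111 in the nicotine libraries (0.91 ± 0.46). Cd68, a lysosomal membrane protein of macrophages, was at 2.72 to 22.0 in the controls and 9.68 to 72.6 in the nicotine libraries (1.13 ± 0.63). Adgre1, which encodes the F4/80 antigen, differed by 0.35 ± 0.23. Control 1 and nicotine 1 were lowest in Fcgr3 and Cd68, and nicotine 3 was highest.

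Nicotine 3 stood apart in this group of genes. Gpnmb, a glycoprotein of lipid-loaded macrophages that was chosen after its values were seen, was at 2770 in nicotine 3 and between 14.7 and 105 in the other 8 libraries. Spp1, osteopontin, was at 743 in nicotine 3 and 4.34 to 25.8 elsewhere, and Trem2, a lipid-sensing receptor, at 47.4 and 1.00 to 10.4. The lipid-associated list summed to 15456 in nicotine 3 and 5592 to 8918 elsewhere. Resident macrophage genes did not share this: 11 of 17 were higher with all libraries (median 0.04) and 5 of 17 without control 1 and nicotine 1 (-0.09). Lysosome genes were higher in 20 of 23 (0.25) and in 21 of 23 without those libraries (0.27). In 1 of the 23, Atp6v1a, a subunit of the proton pump, the groups did not overlap (0.44 ± 0.19). Over all tested genes, 0.339% had every nicotine library above every control.

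**Figure D3:**
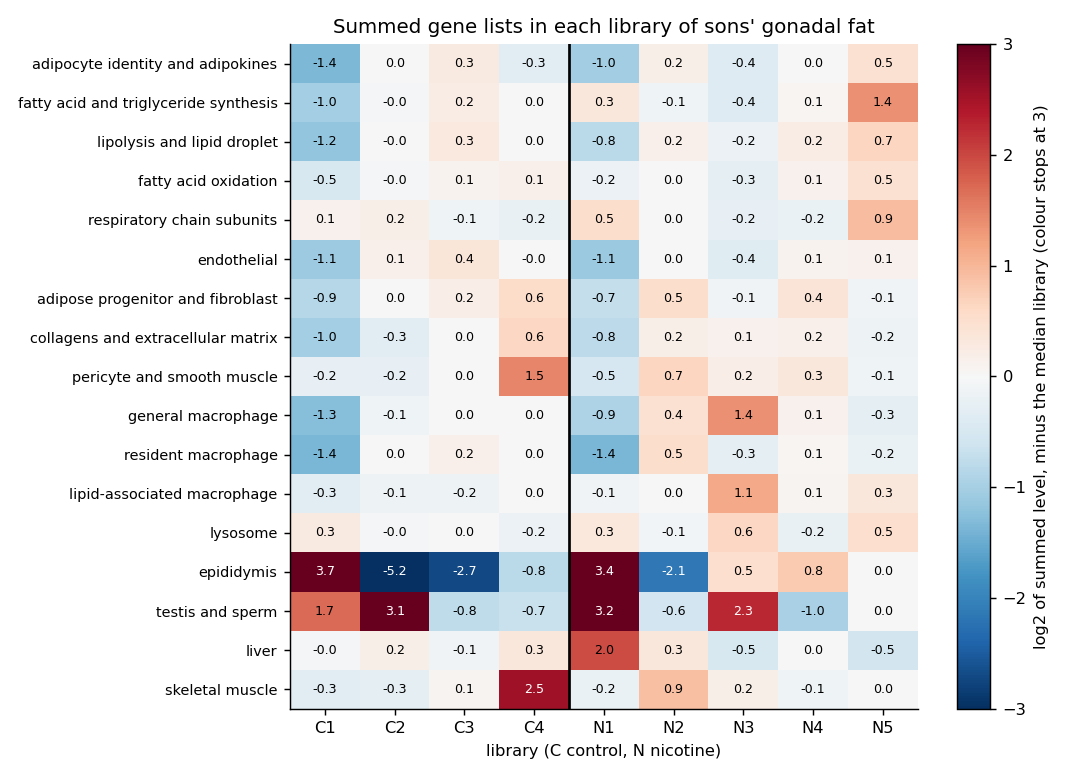
Summed normalized counts of 17 gene lists in each library, as log2(sum + 1) minus the median of the 9 libraries, with controls left and nicotine right of the black line. Control 1 and nicotine 1 are low in adipocyte, vessel and macrophage lists and high in epididymis; nicotine 5 is highest in fatty acid synthesis and nicotine 3 in lipid-associated macrophage genes.

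Stromal and vessel genes were near the median of all genes. Adipose progenitor genes were higher in 13 of 23 (median 0.05), collagens and matrix genes in 16 of 31 (0.01) and endothelial genes in 9 of 21 (-0.01). Without control 1 and nicotine 1 these counts were 10 of 23, 12 of 31 and 5 of 21, with the endothelial median at -0.23. Without control 1 alone the medians were -0.14, -0.28 and -0.43. Col1a1, a chain of type I collagen, was at 834, 910, 825 and 2297 in the controls and at 1069, 1017, 2145, 1676 and 759 in the nicotine libraries, with control 4 highest (0.18 ± 0.38). Genes of TGF-beta signalling and matrix turnover were higher in 11 of 20 (0.04), pericyte and smooth muscle genes in 5 of 14 (-0.12), mesothelial genes in 7 of 11 (0.32) and Schwann cell genes in 2 of 5 (-0.05).

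Insulin signalling genes were split, with 14 of 26 higher (median 0.04). Insr, the insulin receptor, differed by -0.30 ± 0.25, Irs1 by -0.19 ± 0.29 and Irs2 by -0.20 ± 0.21 (Insr -0.48 ± 0.23 and Irs1 -0.33 ± 0.20 without control 1 and nicotine 1), while Akt1, the kinase downstream, was at 48.6 to 79.7 in the controls and 76.0 to 109 in the nicotine libraries (0.47 ± 0.20). Gsk3b, a kinase that Akt inhibits, was at 433, 353, 377 and 383 in the controls and at 317, 295, 349, 189 and 283 in the nicotine libraries, with no overlap (-0.46 ± 0.20). Igf1 differed by 0.05 ± 0.31. Glucocorticoid receptor targets were higher in 12 of 15 (0.34); the median fell to 0.15 when control 1 was left out. Fkbp5, a feedback regulator of the receptor, was at 508, 177, 118 and 149 in the controls and at 447, 289, 194, 289 and 223 in the nicotine libraries (0.47 ± 0.40; 0.74 ± 0.22 without control 1 and nicotine 1). Hsd11b1, which regenerates corticosterone in fat, differed by 0.28 ± 0.34 and Nr3c1, the receptor, by -0.31 ± 0.24. Clock genes were higher in 7 of 20 (-0.12). Among them Bhlhe40, a clock repressor, was at 156, 111, 136 and 97.3 in the controls and at 126, 70.6, 65.8, 65.3 and 61.3 in the nicotine libraries (-0.71 ± 0.24), Per1 at 0.36 ± 0.26 and Dbp at 0.17 ± 0.31.

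Stress and detoxification lists included NRF2 and glutathione genes, higher in 20 of 24 (0.16), and heat shock proteins, higher in 13 of 20 (0.06). The metallothioneins Mt1 and Mt2, which bind zinc and copper, differed by 0.34 ± 0.18 and 0.54 ± 0.28. Iron and ferritin genes were higher in 8 of 13 (0.10), but the median was -0.11 without control 1. Genes that bind or metabolize nicotine were mostly below the filter or not in the table. Of 16 nicotinic acetylcholine receptor genes 2 were in the table and 1 was tested (-0.55), and genes of nicotine metabolism and the aryl hydrocarbon receptor were higher in 5 of 8 (0.02). Ccl2, the chemokine that recruits monocytes, was at 5.43 to 17.4 in the controls and 3.23 to 28.2 in the nicotine libraries (-0.28 ± 0.61), and chemokines and inflammatory cytokines were higher in 7 of 15 (-0.02).

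In all, 54 lists were counted, and 46 had 5 or more tested members. The median change lay between -0.3 and 0.3 in 39 of these, above 0.3 in 6 and below -0.3 in the liver list. The 6 were epididymis, lipid-associated macrophage, fatty acid synthesis, general macrophage, glucocorticoid targets and mesothelial genes. Without control 1 and nicotine 1, 3 lists had a median above 0.3 (epididymis, lipid-associated macrophage and cholesterol synthesis); fatty acid synthesis was at 0.23, general macrophage at 0.29, glucocorticoid targets at 0.26 and mesothelial genes at 0.22. The mesothelial median was 0.01 without control 3 alone. When each library was left out in turn, 16 of the 46 medians kept their sign throughout and 30 did not. Cholesterol synthesis was higher in 15 of 22 (0.24), proteasome in 27 of 33 (0.14), cytosolic ribosomal proteins in 51 of 79 (0.05), glycolysis in 8 of 13 (0.18) and branched-chain amino acid breakdown in 11 of 19 (0.09). Interferon response genes were higher in 13 of 26 (-0.01), complement genes in 7 of 16 (-0.02), MHC class II genes in 6 of 8 (0.13) and hypoxia genes in 4 of 13 (-0.11). Unfolded protein response genes were higher in 12 of 23 (0.00), p53 and apoptosis genes in 10 of 17 (0.05), cell cycle genes in 8 of 15 (0.02) and immediate early genes in 8 of 16 (-0.03). Steroid handling was higher in 4 of 7 (0.04), testis genes in 4 of 9 (-0.01), skeletal muscle in 3 of 6 (0.11) and red blood cell genes in 3 of 6 (-0.01). The 8 lists with fewer tested members were T and NK cell (3 of 3 higher), B and plasma cell (1 of 2), neutrophil and mast cell (2 of 2), pancreas (1 of 1), kidney and adrenal (1 of 1, Akr1b7), the nicotinic receptors (0 of 1), sex chromosome markers (1 of 4), and seminal vesicle and prostate (0 tested).

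**Figure D4:**
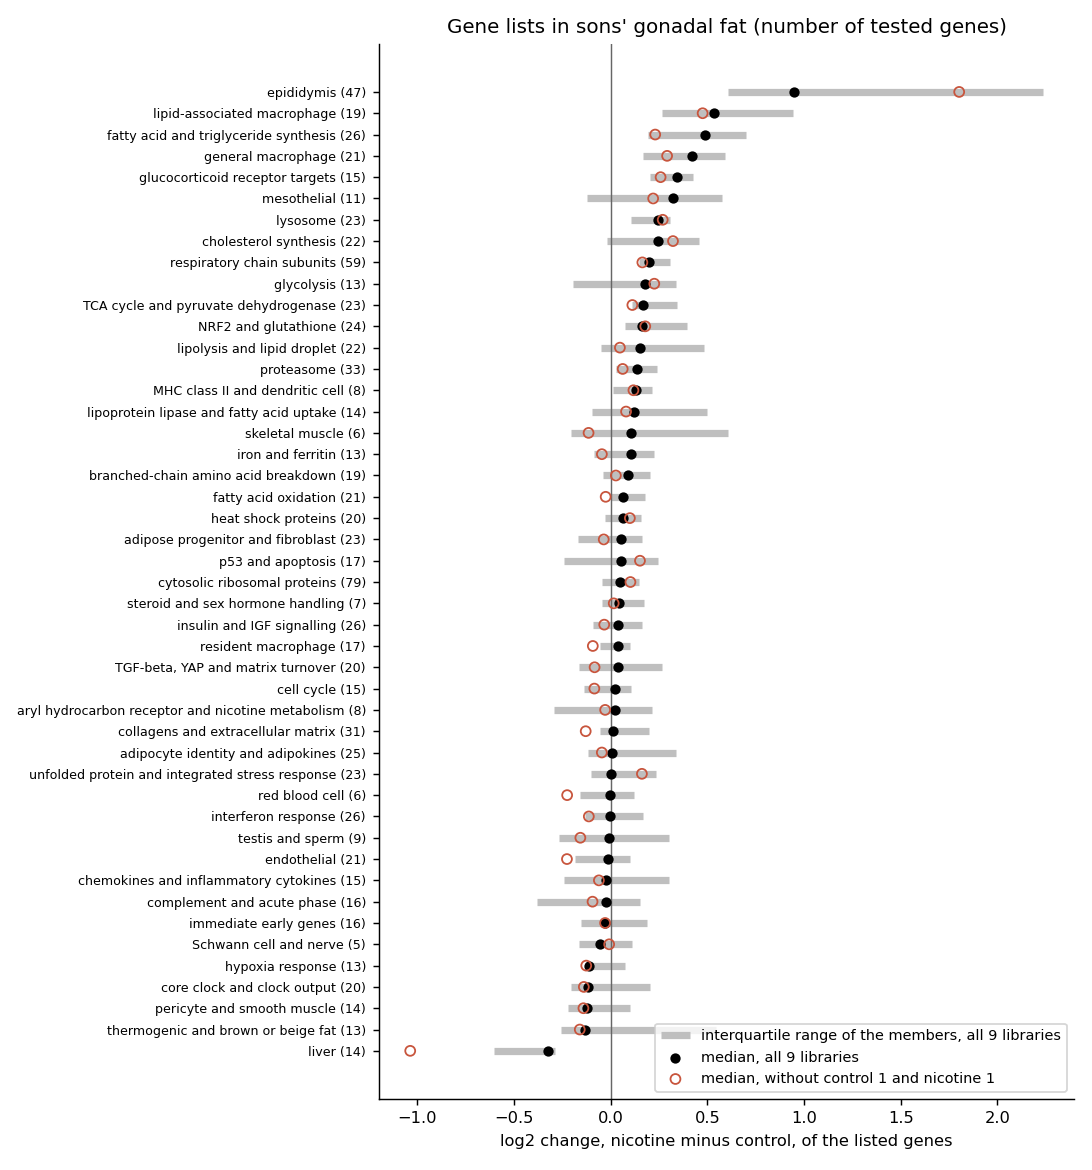
Log2 change (nicotine minus control) of the 46 gene lists with 5 or more tested members: black points are medians with all 9 libraries, grey bars the interquartile range of the members, open circles medians without control 1 and nicotine 1. Epididymis lies at 0.95 (1.80 without the 2 libraries), liver at -0.32 (-1.04), and the medians of 39 lists lie within 0.3 of 0.

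The daughters' gWAT served as the comparison for sons, by a test of the difference between the sexes in the nicotine effect (an interaction term in limma). In daughters 2656 of 10532 genes passed (25.2%), 1303 higher (12.4%) and 1353 lower (12.8%). Of 10042 genes tested in both sexes, the effect differed in 891 (8.87%): it was more positive in sons in 445 (4.43%) and less so in 446 (4.44%). Of these 891, 848 were also called in daughters. The daughters' change enters the interaction term, so this overlap follows in part from how the term is built. Over the shared genes the median absolute change was 0.17 in sons and 0.44 in daughters. The count rested on single libraries of the sons: it was 447 without control 4 and 521 without control 3, and it was 965 without control 1 and nicotine 1 together. The tables were normalized separately, so only changes and no levels were compared between the sexes.

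The gene with the smallest p for a difference between the sexes was Ms4a4a, a membrane protein of macrophages. It was at 58.0, 124, 106 and 40.8 in control sons and at 46.3, 162, 182, 89.7 and 86.7 in nicotine sons (0.43 ± 0.44), whereas in daughters it averaged 92.0 ± 47.8 (SD, n = 5) in controls and 3.25 ± 2.26 (SD, n = 5) after nicotine, a log2 change of -4.45 ± 0.37. The difference between the sexes was 4.88 ± 0.58 (limma adjusted p = 0.000166). Tyrobp, the signalling adaptor of myeloid receptors, had log2 changes of 0.77 ± 0.40 in sons and -3.01 ± 0.35 in daughters (difference 3.77, adjusted p = 0.000761). Cd163, a haemoglobin scavenger receptor, had log2 changes of 0.46 ± 0.46 and -2.59 ± 0.31 (3.05, adjusted p = 0.00396), and Fcgr3 of 0.91 ± 0.46 and -1.67 ± 0.22 (2.58, adjusted p = 0.00518). As lists, 16 of 20 general macrophage genes and 13 of 17 resident macrophage genes fell in daughters, beside 12.8% of all genes. In the general list 1 gene rose in daughters. The effect was more positive in sons in 12 of 20 and 10 of 17, against 4.43% of all genes, and less positive in none. Adgre1 gave the same contrast (1.75, adjusted p = 0.0320), but it did not pass without control 1 and nicotine 1 together (adjusted p = 0.0517), and it also did not pass without control 3 alone or nicotine 3 alone.

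Some genes that led the sons' comparison also differed between the sexes; since they were chosen on the sons' values, which enter the interaction, the overlap is a description. Ftl1 had log2 changes of 0.69 ± 0.17 in sons and -1.75 ± 0.23 in daughters (difference 2.43, limma adjusted p = 0.000199). Ctsd had log2 changes of 0.90 ± 0.28 and -0.56 ± 0.20 (1.45, adjusted p = 0.0151). Cpeb3 had log2 changes of -0.56 ± 0.18 in sons and 1.63 ± 0.19 in daughters (-2.20, adjusted p = 0.000166), and Snora81 of -1.89 ± 0.61 and 4.40 ± 0.47 (-6.29, adjusted p = 0.000243). Uvssa, a DNA repair factor (-2.02, adjusted p = 0.00319), and Arhgap26, a GTPase-activating protein (-1.96, adjusted p = 0.00319), were also lower in the nicotine sons and rose in daughters. Of the 12 genes of smallest p higher in nicotine sons, 11 were tested for the difference and 5 passed. Of the 12 lower, 5 passed. Over all genes tested in both sexes, 8.87% passed. Among these 10, Thoc6 (1.85, adjusted p = 0.0463) and Map9 (-0.94, adjusted p = 0.0442) were lost in 9 and 10 of 17 alternatives, Pdgfa (1.07, adjusted p = 0.0346) in 4 and Snx8 (1.38, adjusted p = 0.0222) in 1, without control 4.

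Several metabolic genes differed in the other direction. Ppargc1a rose in daughters (1.64 ± 0.33) and was at -0.78 ± 0.39 in sons (difference -2.42, limma adjusted p = 0.00765). Insr rose in daughters (1.02 ± 0.26) and was at -0.30 ± 0.25 in sons (-1.32, adjusted p = 0.0363); this difference did not pass without control 2, 3 or 4 or nicotine 5 of the sons. G0s2 rose in daughters (0.67 ± 0.20) and was at -0.80 ± 0.39 in sons (-1.47, adjusted p = 0.0390), and the difference was lost in 6 of 18 alternatives. Gsk3b differed by -0.86 (adjusted p = 0.0200). Akt1 fell in daughters (-1.66 ± 0.22) with 0.47 ± 0.20 in sons (2.13, adjusted p = 0.000505), and Tubb2a, a tubulin, fell in daughters (-1.79 ± 0.18) with 0.38 ± 0.22 in sons (2.17, adjusted p = 0.000243). In daughters 15 of 21 fatty acid oxidation genes rose and 1 fell, and 15 of 23 TCA cycle genes rose, beside 12.4% of all genes that rose. The effect was less positive in sons in 5 of 21 and in 5 of 23, beside 4.44% of all genes. Of the fatty acid synthesis genes 9 of 26 rose in daughters (12.4% of all genes), and the effect was less positive in sons in 1 of 26 (4.44% of all genes). Fasn had log2 changes of 0.97 ± 0.59 in sons and 1.35 ± 0.48 in daughters, neither past the threshold.

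**Figure D5:**
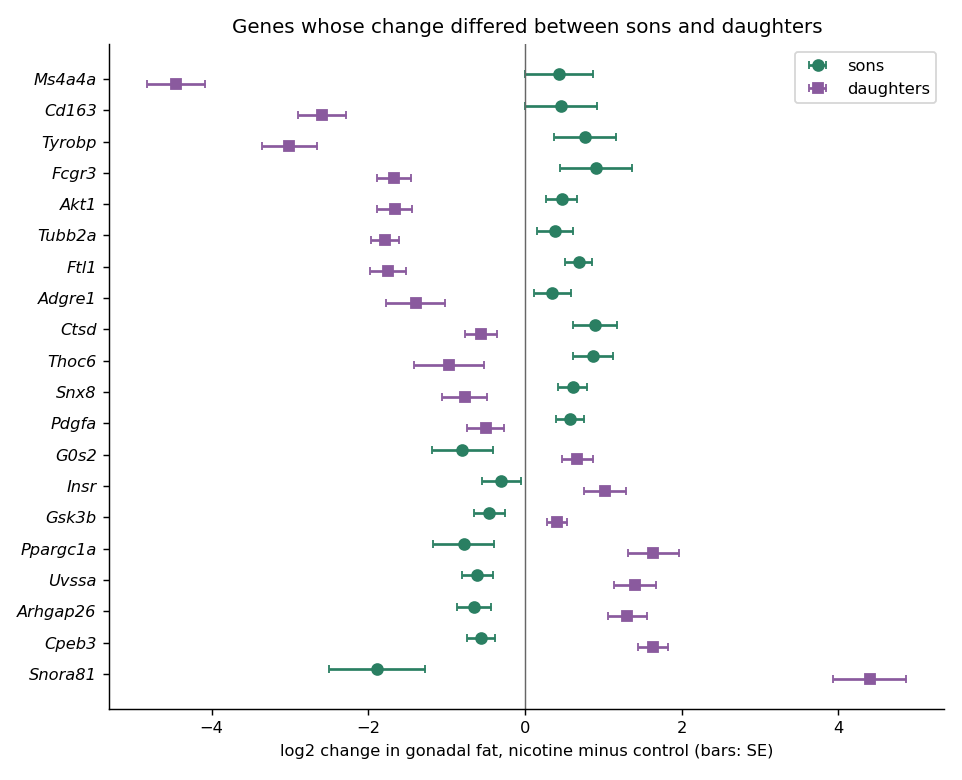
Log2 change (nicotine minus control) with its SE in sons (circles) and daughters (squares) for 20 genes whose change differed between the sexes by limma. Ms4a4a is at 0.43 in sons and -4.45 in daughters, Ppargc1a at -0.78 and 1.64, and Snora81 at -1.89 and 4.40.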

How the data were processed

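The authors deposited normalized counts (a signal scaled by DESeq2, per the file headers) in 1 table per tissue and sex. The same tables hold the authors' log2 fold change with its standard error, a score here, and p-values and adjusted p-values. Per the submitters' processing notes, cutadapt, STAR and mm10 were used, without versions; the counting step and strand use are not stated there. Whole reads were recovered from each column (100% of values within 0.1 of a whole read).

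Genes with a mean of 10 or more were tested by limma 3.58.1 (R 4.3.3, trended empirical Bayes) on log2(normalized count + 1). Genes with a Benjamini-Hochberg adjusted p below 0.05 were called. An interaction term over both gWAT tables compared the sexes. The labels list 5 control sons, and the design took every control column present, so 4 were used. edgeR 4.0.16 and DESeq2 1.42.0 were run on recovered reads. Libraries, gene lists (54) and tests were chosen with earlier results of these data known. Lists are described by counts and medians, with no test. Named genes were the 12 of smallest p each way with a mean of 20 or more, a fixed metabolic set, up to 4 members of smallest p of each list, and the 5 of smallest interaction p; only part of them is printed, and 1 that the rule names is not reported here. Predicted genes were not named. Tract and other-tissue genes, Gpnmb, Spp1, Ptgs2 and Elovl6 were chosen after their values were seen. Positions are from GENCODE M21. The code was tested on simulated data. Plots and counts used Python 3.11.15, pandas 2.3.3, NumPy 2.4.6 and matplotlib 3.10.9.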

Additional observations from a re-analysis of the deposited data

Results flagged for a closer look

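A library was marked where its gap to the nearest of its group, divided by the range of the group, exceeded Dixon's 95% critical value. Chance gives this in about 1 of 20 groups of normally distributed values. The values here were normalized counts without a log transform, so the share marked cannot be set against that rate. Over the genes named and 15 summed lists, 184 groups were looked at and 30 were marked (16.3%); genes of 1 list are not independent, and the genes were chosen with their values known. Nicotine 5 stood above the other nicotine libraries in genes of fat metabolism, and also in Hsd11b1 and Dbp. Its values were 58060 normalized counts for Scd1, 3576 for Lipe, 369 for Slc25a1, 2279 for Thrsp (561 to 1059 in the others), 105 for Cidea, 564 for Hsd11b1 and 247 for Dbp, and the synthesis list summed to 81533. Nicotine 3 stood above in lipid-associated macrophage genes: 2770 for Gpnmb, 743 for Spp1 and 47.4 for Trem2, with the list at 15456. Nicotine 1 stood above at 119463 for the epididymis list, 6602 for the liver list, 126 for Bhlhe40 and 51.6 for Rasd1. Nicotine 2 stood above at 2614 for Akr1b7, 44.2 for Snora81, 34.8 for Smad7 and 269 for the skeletal muscle list, and nicotine 4 at 91.5 for Brox. Among controls, control 1 stood above at 155537 for the epididymis list and 508 for Fkbp5, and below at 1067 for the general macrophage list and 2101 for the resident macrophage list. Control 4 stood above at 6982 for Akr1b7, 2297 for Col1a1, 843 for the skeletal muscle list and 9421 for the smooth muscle list, and below at 4.34 for Spp1.

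In 21 of the genes named, the nicotine effect differed between sons and daughters by the interaction term in limma. The effect in sons minus that in daughters, in log2 units, was 4.88 for Ms4a4a, 3.77 for Tyrobp, 3.05 for Cd163, 2.58 for Fcgr3, 2.43 for Ftl1, 2.17 for Tubb2a, 2.13 for Akt1, 1.85 for Thoc6, 1.75 for Adgre1, 1.45 for Ctsd, 1.38 for Snx8 and 1.07 for Pdgfa. It was -6.29 for Snora81, -2.42 for Ppargc1a, -2.20 for Cpeb3, -2.02 for Uvssa, -1.96 for Arhgap26, -1.47 for G0s2, -1.32 for Insr, -0.94 for Map9 and -0.86 for Gsk3b. The epididymis list could not be compared between the sexes, since 2 of its genes were tested in daughters.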

How the results depend on the processing

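limma called 0 genes in sons' gWAT under all alternatives run: pseudocounts of 0.5 and 5, quantile normalization, no filter, a minimum mean of 50, library weights, edgeR, DESeq2, each library left out, and, added after the data were seen, without control 1 and nicotine 1 and with the epididymis level as a covariate. Leaving out single libraries of the sons moved the number of genes that differed between the sexes from 891 to between 447 and 1116; it was 521 without control 3 and 447 without control 4, where fewer samples were used, and DESeq2 gave 1307. No paired analysis was possible because the numbers of the 4 control columns of sons do not show which labelled samples they are. In daughters the replicate block called 2011 genes against 2656 without it; same-numbered daughters had correlations of deviations from -0.28 to 0.17, so the numbers were not taken to pair the samples. With 4 and 5 libraries, 2-fold changes were mostly not detected in simulated data.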

Other observations

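A pair of RNAs below the filter separated the groups by reads and were chosen after their values were seen. Xist, the RNA that silences an X chromosome in female cells, had 6, 10, 5 and 12 reads in control sons and 0, 2, 0, 0 and 0 in nicotine sons. n-TLcag10, a leucine transfer RNA gene, had 7, 11, 7 and 12 reads in control sons and 1, 0, 2, 0 and 2 in nicotine sons. The authors' deposited table gives both an adjusted p of 0.99998. In daughters 39 of 79 cytosolic ribosomal protein genes fell and none rose, beside 12.8% and 12.4% of all genes; in sons 51 of 79 were higher with a median log2 change of 0.05, and the effect was more positive in sons in 11, beside 4.43% of all genes. Adipose progenitor genes fell in daughters in 11 of 22 (12.8% of all genes), and the effect was more positive in sons in 7 (4.43% of all genes).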
